A study of Homo sapiens with 6 samples.

Results

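The insulin-like growth factor (IGF) binding protein genes IGFBP1 to IGFBP7, the ligand gene IGF1 and the receptor genes IGF1R and IGF2R were examined in LN229R cells after knockout of ATRX, a chromatin remodeler gene that is often mutated in glioma, and in control cells. These 10 genes were chosen by their symbols out of 33616 genes tested, and each was read from the transcript cluster, the array's group of probes for 1 gene, that carried its symbol alone. The rule for genes with several such clusters, to take the brightest on average, was never needed, since each of the 10 genes had 1. The family was taken up with results of these arrays already known, so the p-values given for its genes describe them and are not independent evidence.

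LN229R is a derivative of the human GBM line LN229 that resists temozolomide (TMZ), by the paper. The design text also names LN229R, whereas the sample labels name LN229. All cells were grown in DMEM/F12 with fetal bovine serum, infected with virus carrying CAS9, selected with puromycin for 7 days (10 mg/ml in the labels, 10 µg/mL in the paper) and then infected for 24 hours with sgRNA virus. ATRX KO cells (3 arrays) received sgRNAs against ATRX, and ATRX NC cells (3 arrays), labelled ATRX wild type, received non-targeting sgRNA. The sources used here do not say whether the KO cells were 1 clone or a pool, nor whether replicates were grown separately. The p-values therefore reflect the array-to-array spread alone, which may be technical.

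IGFs drive growth and survival through IGF1R, a receptor tyrosine kinase, while IGF2R takes up IGF2 for breakdown in lysosomes and also sorts lysosomal enzymes. Most IGF outside cells is held by the secreted binding proteins, which keep the ligands from the receptor or, once cut by proteases or held at the cell surface or matrix, release them. Several IGFBPs also act without IGF, and in glioma IGFBP2 and IGFBP3 have been linked to invasion and growth. IGFBP7 shares the amino-terminal domain of the family but binds IGFs weakly.

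ATRX itself was at log2 intensities of 8.47, 8.67 and 8.75 in ATRX KO arrays, against 10.49, 10.22 and 10.14 in ATRX NC arrays (log2 fold change -1.65, standard error 0.16, adjusted p = 0.000561 from limma). Over all genes 1947 rose and 1251 fell at an adjusted p under 0.05. Other scalings of the arrays lowered the share of rises among these calls, which was 60.9% in the deposited values, to 47.7% to 49.2%, and moved the median log2 fold change of all genes from 0.07 to between -0.02 and 0.00. Array medians over the genes tested were 6.14 to 6.17 in ATRX KO and 6.03 to 6.10 in ATRX NC. The table carries no detection call, so a low value has no measured floor. Of the markers of the labelled GBM cells, VIM (log2 17.08 in ATRX KO, 17.05 in ATRX NC), CD44 and SOX2 were bright. S100B (11.67 in ATRX KO, 14.59 in ATRX NC) and NES (11.44 in ATRX KO, 12.45 in ATRX NC) were also bright but fell. GFAP and OLIG2 lay below the median gene on all 6 arrays.

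Within the family the binding proteins moved in opposite directions. IGFBP3, IGFBP7 and IGFBP6 rose and IGFBP5 and IGFBP2 fell in ATRX KO cells, and among the receptors IGF1R fell. Of the 10 genes, 6 passed the test (3 up, 3 down), beside 9.51% of all genes (5.79% up, 3.72% down) and 20.2% of protein-coding genes brighter than the median. At least 2-fold changes that passed were found in 4 of the 10 (IGFBP3, IGFBP5, IGFBP6 and IGFBP7), beside 4.11% of all genes. The groups lay apart in 7 of the 10, beside 30.2% of all genes. IGFBP1, IGFBP4, IGF1 and IGF2R did not pass. Since ATRX KO against ATRX NC was also the comparison known when the family was taken up, nothing is read from these shares.

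**Figure D1:**
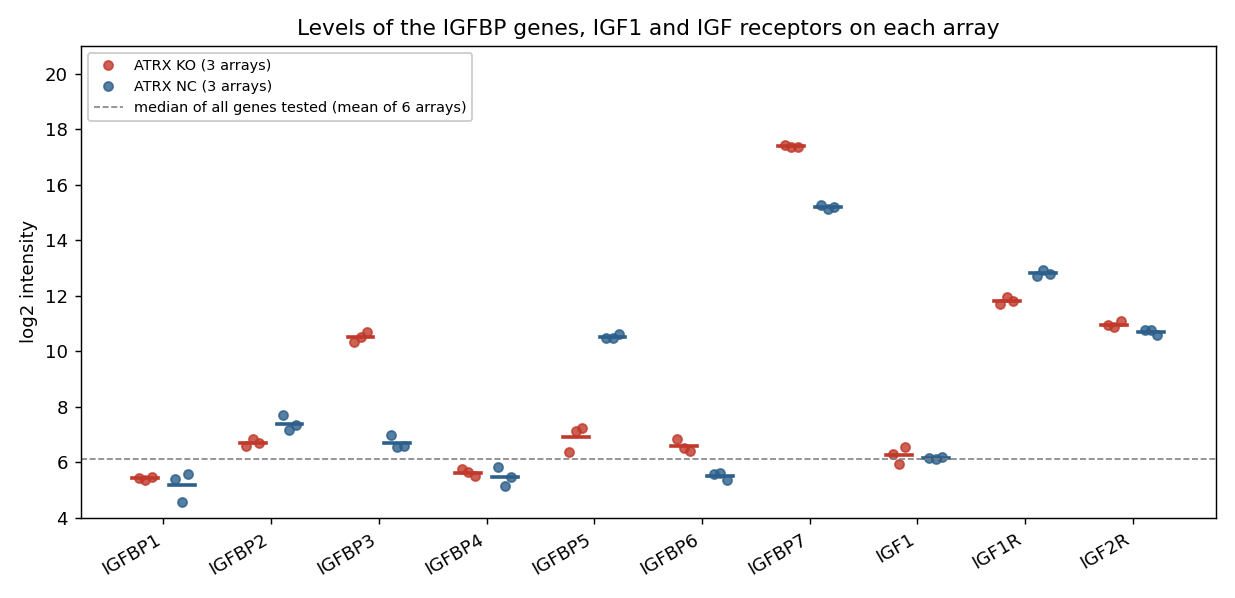
Log2 intensity (vertical axis) of each of the 10 genes on the 3 ATRX KO arrays (red, left of each pair) and the 3 ATRX NC arrays (blue, right); points are arrays, short lines are group means and the dashed line is the median of all genes tested. IGFBP3 and IGFBP5 changed in opposite directions, with IGFBP3 at 10.51 in ATRX KO and 6.70 in ATRX NC and IGFBP5 at 6.91 in ATRX KO and 10.52 in ATRX NC, and levels of different genes are not to be set against each other because each has its own probes.

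The starts of IGFBP3, IGFBP5 and IGFBP6 are shown because these binding protein genes changed at least 2-fold and have an entry in the RefSeq promoter table. Each line gives the 250 bases before the annotated start of the gene on its own strand, in assembly GRCh38.p14. IGFBP3 lies at chr7:45921273-45921522 (minus strand), IGFBP5 at chr2:216695550-216695799 (minus strand) and IGFBP6 at chr12:53097417-53097666 (plus strand). Capitals mark every match on either strand to the TATA box letters TATANA or the variant TATTTAA, the GC box GGGCGG bound by SP1, CCAAT, the AP-1 letters TGANTCA and the STAT letters TTCNNNGAA.
IGFBP3: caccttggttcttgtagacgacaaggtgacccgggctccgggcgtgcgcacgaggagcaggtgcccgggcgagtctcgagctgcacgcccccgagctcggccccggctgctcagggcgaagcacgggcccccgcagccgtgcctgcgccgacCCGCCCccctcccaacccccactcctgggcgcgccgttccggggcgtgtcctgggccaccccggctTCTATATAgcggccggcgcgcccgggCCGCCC
IGFBP5: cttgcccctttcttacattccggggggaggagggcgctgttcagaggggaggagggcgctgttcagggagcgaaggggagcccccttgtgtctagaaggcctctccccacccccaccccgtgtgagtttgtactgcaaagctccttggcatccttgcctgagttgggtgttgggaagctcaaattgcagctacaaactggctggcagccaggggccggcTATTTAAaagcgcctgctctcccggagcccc
IGFBP6: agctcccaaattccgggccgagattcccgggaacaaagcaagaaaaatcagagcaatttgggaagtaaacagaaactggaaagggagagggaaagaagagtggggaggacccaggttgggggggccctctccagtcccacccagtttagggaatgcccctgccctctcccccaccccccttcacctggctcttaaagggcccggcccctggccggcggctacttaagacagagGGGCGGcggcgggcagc
IGFBP3 carried TATA box letters from -32 to -25 before its start, in 3 overlapping matches on the 2 strands, and 2 GC boxes. IGFBP5 carried the variant TATTTAA from -31 to -25 and no GC box, and IGFBP6 carried 1 GC box and no TATA letters. Over 35116 promoter windows of the same length, 17.7% held the TATA box letters, 4.17% the variant and 42.6% the GC box. None of the 3 windows held the CCAAT box (present in 32.0% of all windows), the AP-1 letters (6.57%) or the STAT letters (6.57%). CG dinucleotides, the sites of DNA methylation, numbered 32 before IGFBP3, 8 before IGFBP5 and 9 before IGFBP6, against a median of 11 over all windows. The receptor genes had CG-rich starts, with 48 before IGF1R and 33 before IGF2R. Of the 10 genes 8 had an entry in the table, and IGFBP1 and IGFBP7 had none. A match of letters is a description and not a bound site.

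IGFBP3 encodes the main carrier of IGFs in blood and had the largest rise of the family. Its log2 intensity was 10.33, 10.53 and 10.68 in the 3 ATRX KO arrays, against 6.97, 6.54 and 6.60 in the 3 ATRX NC arrays. Every ATRX KO array lay above every ATRX NC array, by more than 3 log2 units. The fitted level in ATRX KO cells was 14.0 times that in ATRX NC cells (95% interval 10.6 to 18.6, log2 fold change 3.81, standard error 0.18, adjusted p = 1.2e-05 from limma), which was the rise of rank 39 among 33616 genes. IGFBP3 was brighter than 82.4% to 84.0% of genes on the ATRX KO arrays and than 56.8% to 60.8% on the ATRX NC arrays. By the distance between the 6 array values after each gene was centred on its mean, the protein-coding genes nearest to IGFBP3 were APOL3 (distance 0.24 log2 units), CPA4 (0.30) and BASP1 (0.39), with log2 fold changes of 3.66, 3.68 and 4.06. With 2 groups of 3 arrays, this likeness is little more than a like size of change.

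IGFBP7, whose product is secreted into the matrix around vessels and cells, was among the brightest genes on every array. It stood at 17.43, 17.36 and 17.35 in ATRX KO, against 15.27, 15.14 and 15.20 in ATRX NC. The groups did not overlap, and the spread within each (SD 0.04 in ATRX KO, 0.06 in ATRX NC, n = 3 each) was small beside the difference between them. The fold was 4.52 (95% interval 3.63 to 5.63, log2 fold change 2.18, standard error 0.14, adjusted p = 6.7e-05 from limma). IGFBP7 was brighter than 99.6% of genes in ATRX KO and 98.3% to 98.4% in ATRX NC, and whether its probes approached saturation could not be read from the deposited values. The dim antisense transcript IGFBP7-AS1, picked out after its values were seen, averaged 4.96 ± 0.06 in ATRX KO and 4.41 ± 0.17 in ATRX NC (SD, n = 3 each) and missed the threshold (log2 fold change 0.55, adjusted p = 0.0584 from limma), although its groups did not overlap.

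IGFBP6, which prefers IGF2 over IGF1, rose and was dim in ATRX NC cells. It was at 6.84, 6.53 and 6.42 in ATRX KO and at 5.56, 5.63 and 5.36 in ATRX NC. The groups did not overlap, and IGFBP6 stood 0.44 above the median gene in ATRX KO and 0.55 below it in ATRX NC, where dim values have no measured floor. The fold was 2.12 (95% interval 1.62 to 2.77, log2 fold change 1.08, standard error 0.17, adjusted p = 0.00612 from limma).

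IGFBP5 had the largest fall of the family. Its product binds matrix and bone mineral and is a target of the proteases PAPPA, PAPPA2 and C1S. It was at 6.37, 7.14 and 7.22 in ATRX KO, against 10.47, 10.47 and 10.61 in ATRX NC. The ATRX KO arrays were the more spread group, with replicate 1 the lowest, yet each lay more than 3 log2 units under every ATRX NC array. The level in ATRX KO was 8.19% of that in ATRX NC (log2 fold change -3.61, 95% interval -4.14 to -3.07, standard error 0.23, adjusted p = 7.2e-05 from limma), the fall of rank 10 among all genes. IGFBP5 was brighter than 52.9% to 62.3% of genes in ATRX KO and than 83.5% to 84.3% in ATRX NC.

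IGFBP2, a binding protein of the developing brain and of many gliomas, was lower by a smaller amount. It was at 6.57, 6.84 and 6.69 in ATRX KO and at 7.69, 7.16 and 7.33 in ATRX NC. All 3 ATRX KO arrays lay below the ATRX NC arrays. The level in ATRX KO was 61.7% of that in ATRX NC (log2 fold change -0.70, 95% interval -1.11 to -0.28, adjusted p = 0.0492 from limma, standard error 0.18). The call sits at the threshold: whichever array was left out, IGFBP2 no longer passed (adjusted p = 0.0540 to 0.151), with the log2 fold change between -0.81 and -0.55.

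IGFBP1, an insulin-regulated product of the liver, and IGFBP4, which holds IGFs away from their receptor until PAPPA cuts it, were dim in both groups. IGFBP1 was at 5.45, 5.35 and 5.46 in ATRX KO and at 5.39, 4.58 and 5.56 in ATRX NC, with overlapping groups (log2 fold change 0.24, 95% interval -0.33 to 0.82). ATRX NC replicate 2 was the low array, and without it the log2 fold change of IGFBP1 was -0.05. IGFBP4 was at 5.76, 5.64 and 5.49 in ATRX KO and at 5.84, 5.13 and 5.47 in ATRX NC, also overlapping (log2 fold change 0.15, 95% interval -0.31 to 0.62), and at -0.02 without the same array. Adjusted p-values from limma were 0.618 and 0.708. Both genes stayed below the median gene in each group mean, and changes within these intervals cannot be told from 0 with these arrays.

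**Figure D2:**
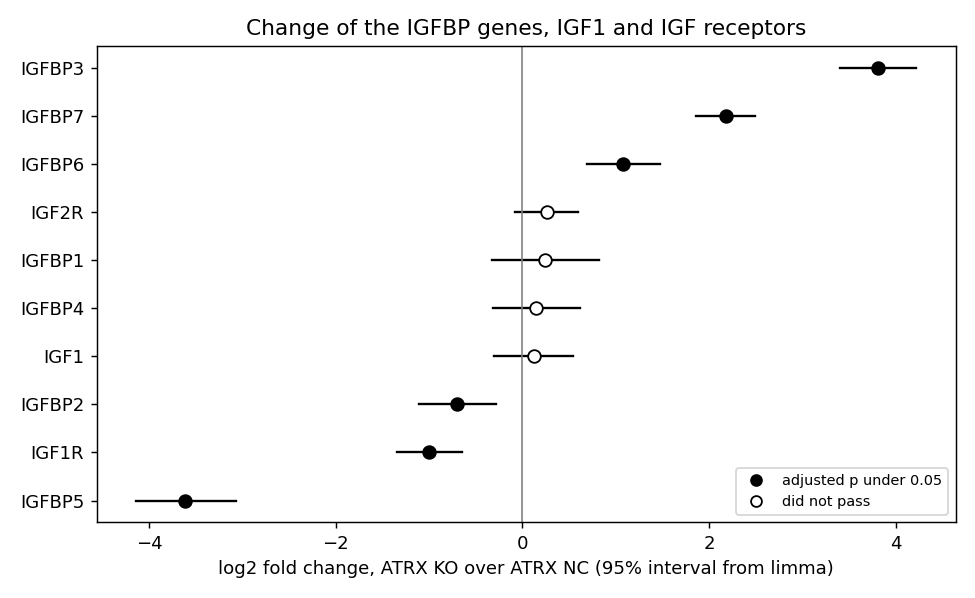
Log2 fold change of ATRX KO over ATRX NC (horizontal axis) for the 10 genes, ordered by size, with 95% intervals from limma (n = 3 arrays per group); filled points passed an adjusted p under 0.05. IGFBP3 (3.81), IGFBP7 (2.18) and IGFBP6 (1.08) lie to the right of 0, IGFBP2 (-0.70), IGF1R (50.2% of the ATRX NC level) and IGFBP5 (-3.61) to the left, and the intervals of IGF2R, IGFBP1, IGFBP4 and IGF1 include 0.

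IGF1R, the receptor through which both IGFs signal, was at 11.70, 11.97 and 11.80 in ATRX KO, against 12.72, 12.93 and 12.80 in ATRX NC. The groups lay well apart, and the gene stayed brighter than 88.7% of genes on every array. The level fell to 50.2% of that in ATRX NC (95% interval of the log2 fold change -1.34 to -0.65, standard error 0.15, adjusted p = 0.00512 from limma).

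IGF2R was at 10.93, 10.86 and 11.08 in ATRX KO and at 10.76, 10.76 and 10.59 in ATRX NC. All 3 ATRX KO arrays lay above the ATRX NC arrays, but the difference was small and did not pass (log2 fold change 0.26, 95% interval -0.08 to 0.59, adjusted p = 0.338 from limma). The ligand gene IGF1 lay near the median gene, at 6.29, 5.93 and 6.56 in ATRX KO and at 6.14, 6.10 and 6.18 in ATRX NC. Its groups overlapped (log2 fold change 0.12, 95% interval -0.30 to 0.54, adjusted p = 0.752 from limma).

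Some of the binding protein genes are neighbours. IGFBP1 and IGFBP3 are next to each other on chromosome 7, and IGFBP2 and IGFBP5 on chromosome 2. The difference between IGFBP1 and IGFBP3 on the same array was -4.88, -5.18 and -5.22 in ATRX KO and -1.58, -1.96 and -1.04 in ATRX NC. The difference between IGFBP2 and IGFBP5 was 0.20, -0.30 and -0.53 in ATRX KO and -2.78, -3.31 and -3.28 in ATRX NC. In each pair the neighbours thus changed by unequal amounts, by -3.57 and 2.91 log2 units between the groups. IGFBP3 minus IGFBP5 changed by 7.42 and IGFBP7 minus IGFBP5 by 5.79. For each of these 4 pairs the exact two-sided permutation test gave p = 0.1, the smallest that 3 against 3 arrays allow, so no adjustment over the 4 could pass. The family was taken up with these changes known, so this test only describes the pairs and is no evidence.

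Among the 2 nearest measured protein-coding genes on each side of the 10 genes, 32 in all beside the 10 themselves, 2 rose and 2 fell. Of all genes 9.51% were called, and of protein-coding genes brighter than the median 20.2%. Fitted alone, 2064 of 17579 protein-coding genes rose and 1418 fell. These shares differ, so nothing is read from the count of neighbours. The adenylate cyclase gene ADCY1 (log2 fold change 1.12, standard error 0.16) and the tensin gene TNS3, of a focal adhesion protein (0.68, standard error 0.14) flank IGFBP1 and IGFBP3 on chromosome 7. The TNS3 call was lost on leaving out any of 4 arrays (ATRX KO replicate 1 or 3, ATRX NC replicate 1 or 3, highest adjusted p = 0.0819 from limma). PKD1L1 (0.03), beyond TNS3, did not pass. The latrophilin gene ADGRL3 beside IGFBP7 on chromosome 4 fell by 2.13 (standard error 0.16) while IGFBP7 rose. On its other side NOA1 (-0.30) and POLR2B (-0.24) did not pass, nor did TECRL (0.55) beyond ADGRL3. POLR2B did pass with a variance trend and robust fit (adjusted p = 0.0444 from limma). It also passed with the methods' t-test after adjustment (adjusted p = 0.0331, not exact). The intermediate filament gene SYNM, near IGF1R on chromosome 15, fell by 1.53 (standard error 0.15), while MCTP2 (0.67), ARRDC4 (0.17) and PGPEP1L (0.18) did not pass. Around IGFBP2 and IGFBP5, the ribosomal protein gene RPL37A (0.03), SMARCAL1 (0.44), TNP1 (0.07) and TNS1 (0.48) did not pass. Around IGFBP6, TNS2 (-0.01), SPRYD3 (0.31), SOAT2 (0.31) and CSAD (0.09) did not pass either. TNS4, which neighbours IGFBP4 and was picked out after its values were seen, was at -0.88 (adjusted p = 0.0570 from limma).

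**Figure D3:**
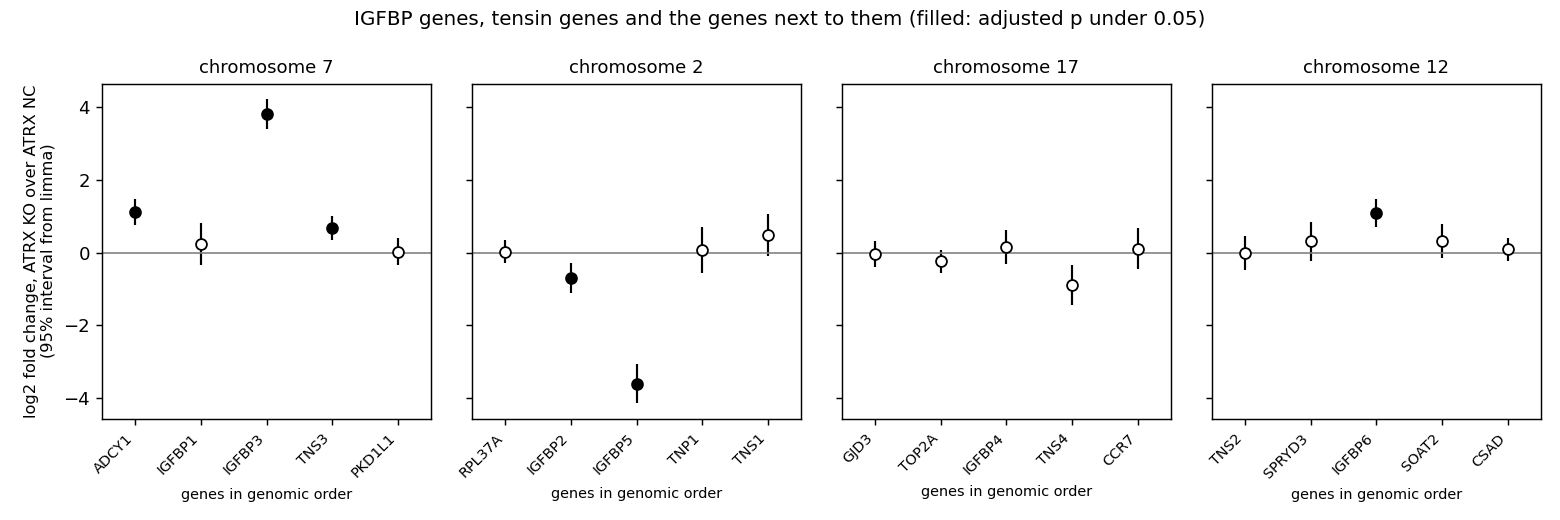
Log2 fold change of ATRX KO over ATRX NC (vertical axis, 95% intervals from limma, n = 3 arrays per group) for IGFBP1 to IGFBP6, tensin genes and genes next to them, in genomic order on chromosomes 7, 2, 17 and 12; filled points passed an adjusted p under 0.05. IGFBP3 at 3.81 stands between IGFBP1 (0.24) and TNS3 (0.68), and IGFBP5 at -3.61 between IGFBP2 (-0.70) and TNP1 (0.07). The next genes beyond IGFBP1 and IGFBP2 are ADCY1 (1.12) and RPL37A (0.03).

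Other genes of the IGF system were taken from 8 lists written from textbook knowledge, with earlier results of these data known. Nothing is therefore read from the counts over these lists or within each of them. Of their 74 measured genes, 19 rose, 7 fell and 48 did not pass, beside 9.51% of all genes called. Of protein-coding genes brighter than the median, 20.2% were called. The median log2 fold change of the 74 genes was 0.27, against 0.07 over all genes tested. Among the highest were the stanniocalcins, which bind the IGFBP proteases PAPPA and PAPPA2 and block them. STC1 averaged 14.32 ± 0.13 in ATRX KO and 8.49 ± 0.19 in ATRX NC (SD, n = 3 each), and STC2 averaged 11.57 ± 0.08 in ATRX KO and 8.09 ± 0.19 in ATRX NC (SD, n = 3 each). Their log2 fold changes were 5.84 (standard error 0.16) and 3.48 (standard error 0.16). IGFALS, the acid-labile subunit that holds IGFs and IGFBP3 in blood, was at 0.28 and did not pass.

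Of 16 proteases that cut IGFBPs, 6 rose and 1 fell, beside 9.51% of all genes called, with a median log2 fold change of 0.48. After quantile normalization, median centring or cyclic loess 5 rose and 1 fell. PAPPA, which cuts IGFBP4 and IGFBP5, was at 9.03 ± 0.21 in ATRX KO and 6.69 ± 0.03 in ATRX NC (SD, n = 3 each), a log2 fold change of 2.34 (standard error 0.16, adjusted p = 8.7e-05 from limma). The complement protease C1S, which can cut IGFBP5, rose by 5.85 (standard error 0.19) and its partner C1R by 3.43 (standard error 0.18). The metalloproteinase genes MMP1 (1.87), MMP9 (1.10) and MMP3 (0.62) also passed, but MMP1 did not with the methods' t-test after adjustment (adjusted p = 0.0752, not exact). MMP3 no longer passed after any of the other scalings or without any 1 array (highest adjusted p = 0.143). ADAM12, which cuts IGFBP3 and IGFBP5, fell by 0.59, a call lost on leaving out any 1 array (highest adjusted p = 0.125). PAPPA2, HTRA1, ADAM9, ADAM28, MMP2, MMP7, PLAU, PLG and CTSD did not pass.

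Of 22 measured genes of IGF signalling inside the cell, 5 rose and 2 fell, beside 9.51% of all genes called. After quantile normalization, median centring or cyclic loess 3 rose and 2 fell. IRS1, the adaptor that couples IGF1R to PI3K, was at 8.69 ± 0.19 in ATRX KO and 6.24 ± 0.30 in ATRX NC (SD, n = 3 each), a log2 fold change of 2.46 (standard error 0.20, adjusted p = 0.000196 from limma), while its relative IRS2 was at -0.30 and did not pass. The PI3K regulatory subunit gene PIK3R1 rose by 1.25 (standard error 0.14) and the adaptor gene SHC1 by 0.80 (standard error 0.14). MTOR (0.58) and the phosphatase gene PTPN1 (0.56) passed on the deposited scaling only, and lost the call without any 1 array (highest adjusted p = 0.139 and 0.137). The transcription factor gene FOXO1 fell by 1.15 (standard error 0.20) and the translation repressor gene EIF4EBP1 by 0.87 (standard error 0.17). Neither passed with the methods' t-test after adjustment (adjusted p = 0.0725 and 0.0681, not exact), and the EIF4EBP1 call was also lost without ATRX KO replicate 1 or 2 or ATRX NC replicate 1 or 2 (highest adjusted p = 0.0584).

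Of 3 IGF2 mRNA-binding proteins, IGF2BP2 fell by 1.60 (standard error 0.14, adjusted p = 0.000323 from limma) and was at 12.69 ± 0.10 in ATRX KO and 14.29 ± 0.06 in ATRX NC (SD, n = 3 each). With the mean over both its clusters it was at -1.05 and still passed. IGF2BP3 fell by 0.73, a call lost on leaving out any array but ATRX NC replicate 2 (highest adjusted p = 0.0966), and IGF2BP1 was at 0.01. IGF2 itself, read from a dim cluster beside another that carries 2 symbols and was not used, was at 0.22, the insulin receptor gene INSR at -0.25 and INSRR at -0.37, and none of these 3 passed with limma or the methods' t-test, with 0 of 3 also before adjustment.

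Of 10 partners of IGFBPs at the cell surface or in the nucleus, 3 rose and 2 fell, beside 9.51% of all genes called. PTPRZ1, a receptor phosphatase reported to bind IGFBP2, was at 10.28 ± 0.33 in ATRX KO and 13.45 ± 0.26 in ATRX NC (SD, n = 3 each), a log2 fold change of -3.17 (standard error 0.22), and the integrin gene ITGB3 fell by 2.49 (standard error 0.16). ITGA5, whose integrin binds IGFBP1, rose by 2.44 (standard error 0.17) and its partner ITGB1 by 0.94 (standard error 0.14). LRP1 passed at 0.81, a call lost on leaving out any array but ATRX KO replicate 2 (highest adjusted p = 0.0943). Of 13 relatives that carry an IGFBP domain, 3 rose and none fell, beside 9.51% of all genes called. The rises were CCN3 (1.79, standard error 0.17), CCN4 (0.87, standard error 0.16) and CRIM1 (0.86, standard error 0.15). CCN4 lost its call without ATRX KO replicate 3 (adjusted p = 0.0560 from limma). None of 5 genes of the growth hormone axis (GHR, PRLR, JAK2, STAT5A, STAT5B) passed with limma or with the methods' t-test after adjustment, while 2 of 5 had p under 0.05 before adjustment by either, and the median was -0.45. With the test limited to genes above the median level, 2 of the 5 fell with limma.

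**Figure D4:**
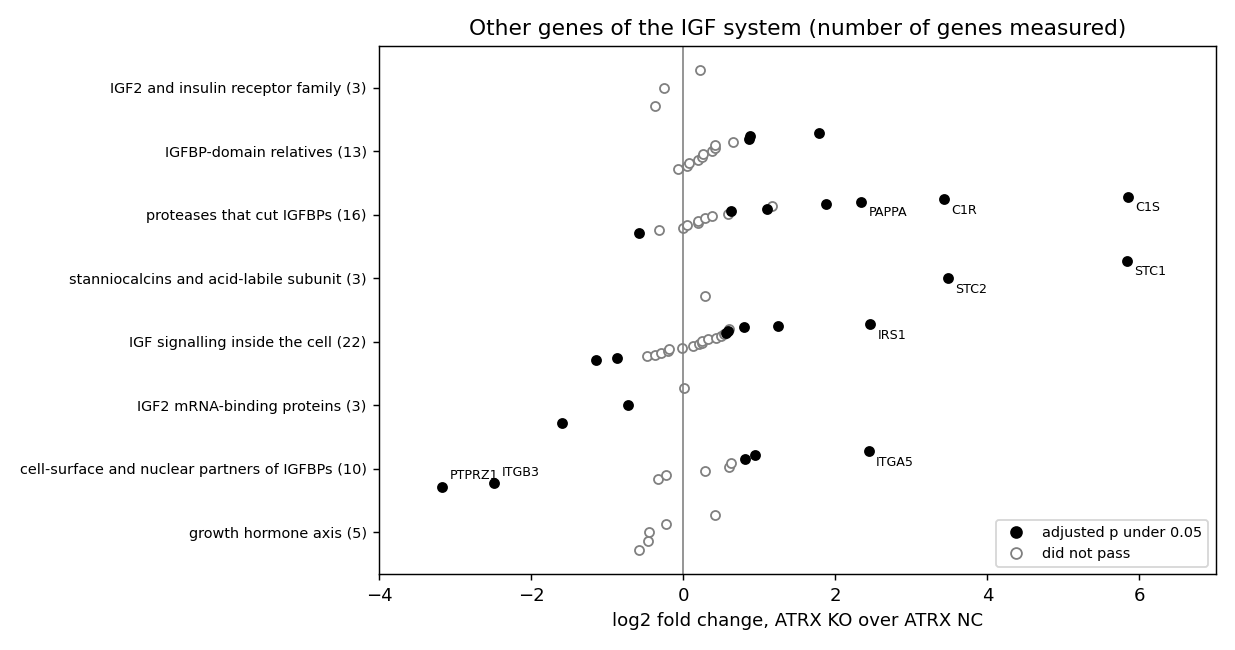
Log2 fold change of ATRX KO over ATRX NC (horizontal axis) for the 74 other genes of the IGF system, 1 point per gene in 8 lists (HTRA1 stands in 2), with the number measured in parentheses; filled points passed an adjusted p under 0.05, and called genes that changed by at least 2 log2 units are named. C1S (5.85) and STC1 (5.84) lie farthest to the right and PTPRZ1 (-3.17) and ITGB3 (-2.49) farthest to the left.

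Several IGFBPs are also made by fibroblasts and endothelial cells, whose markers were read beside them. A summed level is the log2 of the sum of the unlogged intensities of a list, so its brightest genes weigh most. Of 9 fibroblast markers 5 rose (FAP, LUM, TAGLN, DCN and PDGFRB), beside 9.51% of all genes called. COL1A1 (-0.31), COL1A2 (0.68), THY1 (0.48) and ACTA2 (-0.09) did not pass. The summed level was 15.36 to 15.83 in ATRX KO and 12.32 to 12.38 in ATRX NC. LUM was the brightest of these markers, with group means of 15.17 in ATRX KO and 11.65 in ATRX NC. Of 5 endothelial markers PECAM1 rose (1.52), with a summed level of 7.81 to 8.11 in ATRX KO and 7.44 to 7.55 in ATRX NC, and CDH5, KDR and TEK lay below the median gene on all arrays. None of 5 immune markers passed with limma or with the methods' t-test after adjustment (before adjustment 2 and 1), with a summed level of 8.66 to 8.83 in ATRX KO and 8.32 to 8.44 in ATRX NC, and of 5 epithelial markers KRT19 rose (0.74), with a summed level of 11.24 to 11.57 in ATRX KO and 11.48 to 11.53 in ATRX NC. Of 7 glioma and neural markers S100B (-2.93) and NES (-1.02) fell. The part of these shifts in the changes of the IGFBP genes was not tested. The sample labels name the line LN229. In bulk RNA a change in the number of cells of a type and a change in RNA per cell cannot be told apart.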

How the data were processed

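Total RNA of 6 samples was labelled with biotin and hybridised, 1 array per sample. The values the authors deposited are log2 intensities of 135748 transcript clusters, normalized by their methods with the quantile algorithm of limma. The background correction, the probe summary and all versions were not given in the sources used here. Although the methods name Agilent arrays, the cluster identifiers and the kit belong to Affymetrix whole-transcript chemistry. Clusters were named from the platform annotation, with symbols updated through Entrez numbers to RefSeq (GRCh38.p14), which matched 25516 of 36176 clusters with 1 symbol. Clusters with several symbols (1119) or none (98453) were not used. The table has no depth or detection call, and precision is limited by the number of arrays.

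The change of ATRX KO over ATRX NC was fitted by limma's lmFit and eBayes, version 3.58.1 (R 4.3.3), over 33616 genes with Benjamini-Hochberg adjustment (threshold 0.05, 95% intervals). The script was tested on simulated data. Alternatives were 3 scalings (cyclic loess, median centring, a repeated quantile normalization), 2 filters on dim genes, the mean over clusters, all clusters, protein-coding genes, a variance trend with a robust fit (statmod 1.5.0), a replicate block, the loss of each array, and the methods' t-test. Members and lists were chosen with earlier results of these data known. Named were the 10 genes, ATRX, all genes of the 8 lists that passed, neighbours of changed genes and the 3 genes most like IGFBP3. Some genes of the lists were not analysed here. Promoters are from RefSeq, without the last 50 bases of each entry. Figures used matplotlib 3.10.9.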

Additional observations from a re-analysis of the deposited data

How the results depend on the processing

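IGFBP3, IGFBP5, IGFBP7, IGF1R and ATRX kept their direction and passed under all alternatives run, and IGFBP6 under all that tested it (the filter at the median level removed it). Leaving out 1 array gave log2 fold changes of 3.73 to 3.95 for IGFBP3, -3.76 to -3.34 for IGFBP5, 2.14 to 2.21 for IGFBP7, 0.96 to 1.17 for IGFBP6, -1.07 to -0.93 for IGF1R and -1.72 to -1.55 for ATRX. IGFBP2 ranged from -0.81 to -0.55 and passed in none of these fits. It also failed at -0.70 with all clusters tested (adjusted p = 0.0528 from limma), with the replicate block (0.107) and with the methods' t-test after adjustment (0.122). IGFBP1 (-0.05 to 0.44), IGFBP4 (-0.02 to 0.33), IGF1 (-0.03 to 0.28) and IGF2R (0.19 to 0.31) did not pass without any array, and IGF2R at 0.26 passed with the methods' t-test before adjustment alone (p = 0.0414, not exact). The cause of these shifts was not tested. Over all genes, 3051 rose and 1909 fell among genes above the median level, 3207 and 1934 with the variance trend, 1255 and 804 with the replicate block, 1037 to 1354 and 739 to 836 without 1 array, and 1224 and 771 (before adjustment 4650 and 2775) with the methods' t-test. In the 8 IGF lists 14 to 16 genes rose without 1 array and 16 after each of the other scalings, against 19. In the same lists 4 to 5 genes fell without 1 array, and 3 (before adjustment 13) with the methods' t-test, against 7. Same-numbered arrays did not deviate together over all genes (correlations of -0.0229, -0.0389 and -0.00425). These values show no large shared deviation, but they cannot settle whether the numbers mark paired cultures or hybridisations. The replicate block ended the calls of IGFBP2, ADAM12, IGF2BP3, LRP1, MMP3, MTOR, PTPN1 and TNS3 among the genes named here. The methods' t-test after adjustment ended those of IGFBP2, ADAM12, CCN4, EIF4EBP1, FOXO1, IGF2BP3, LRP1, MMP1 and MMP3. Levels near or below the median gene have no measured floor, so folds of dim genes may be compressed.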
